A study of Mus musculus with 16 samples.

Results

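Cholesterol and fatty acid synthesis genes and their SREBP regulators form a named list of 32 genes, matched by Entrez identifier to mouse symbols, out of 24467 genes in the count tables. The list holds 7 enzymes of the mevalonate arm, 11 enzymes from squalene to cholesterol, 4 regulators or sterol carriers, 5 genes of fatty acid supply and synthesis, and 5 of elongation and desaturation. All 32 were in the files and passed the filter on low counts. They were measured by bulk RNA-seq in pancreatic ductal adenocarcinoma (PDAC) cells of a KPC line, a name used for cells of a genetic mouse model of pancreatic cancer. The line carried 7TCF-eGFP, a green fluorescent reporter behind TCF binding sites that is read as a sign of WNT/beta-catenin transcription, and Porcn-DMA, a construct of a make-up not given in the sources used here. Cells implanted in the pancreas of mice grew into tumours, which were dissociated and sorted by reporter into 4 populations of 4 libraries each, with 4 mice per group in the design. DP cells were positive for both reporters, mScarlet cells for mScarlet alone, GFP cells for GFP alone and DN cells for neither. All 4 populations therefore share the line, both constructs and the host tissue. The design names WNT-responsive and WNT-secreting populations, and no label says in words which gate is which. Of the hosts, the labels used here state neither strain, sex nor age, and of the line they do not state whether it is 1 clone.

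Cholesterol is built from acetyl-CoA through mevalonate, farnesyl diphosphate and squalene, while fatty acids are built from acetyl-CoA by carboxylation and repeated condensation. The SREBP transcription factors, encoded by Srebf1 and Srebf2, are made as membrane proteins of the endoplasmic reticulum. When sterol there is low they leave it, are released by cleavage and switch these genes on, SREBP-2 mainly those of the sterol route and SREBP-1c mainly those of the fatty acid route. In pancreatic cancer the mevalonate arm is also known as the source of the isoprenoid anchors that hold small GTPases at membranes.

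Total counts ran from 80647185 to 104273669 per library, with 15476 to 17805 genes detected. Keratins marked every library as epithelial (Krt8 from 4958 to 12740 CPM), whereas Epcam stayed below 0.5 CPM in 15 of 16 libraries and was at 29.0 CPM in GFP library 4. Markers of other cells were not even across the sort. The 10 fibroblast markers summed to 27.0 to 272 CPM in DP and 17.5 to 88.3 CPM in mScarlet, against 609 to 9314 CPM in GFP and 135 to 1440 CPM in DN, and the 11 acinar markers to 46.0 to 184 CPM in DP and 67.8 to 1367 CPM in mScarlet, against 371 to 26722 CPM in GFP and 92.2 to 894 CPM in DN. In bulk samples a lower level from fewer cells of a type and one from less RNA per cell cannot be told apart. CPM here are counts scaled to a common library total with TMM factors, not per gene length, so levels are compared between libraries and not between genes.

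With mScarlet, 3 of the 7 enzymes of the mevalonate arm were lower, and a sterol reductase and an acetyl-CoA synthetase were higher. Between mScarlet-positive cells (DP and mScarlet, 8 libraries) and mScarlet-negative cells (GFP and DN, 8 libraries), 5 of the 32 members were called, that is, passed a Benjamini-Hochberg adjusted p of 0.05 in edgeR's quasi-likelihood test over all 15963 genes. Mvk, Acat2 and Pmvk were lower and Tm7sf2 and Acss2 were higher. Among all genes tested 8.88% were called (3.46% higher and 5.43% lower), against 15.6% of the members. Adding the library number as a block, since libraries of the same number deviated together, raised this to 10 members (3 higher and 7 lower, 31.2%) beside 14.2% of all genes. The block added Fdps, Mvd, Sqle and Stard4 as lower and Srebf1 as higher. DESeq2 called 7 members, adding Fdps and Stard4 as lower, beside 15.3% of the genes it tested. Over the members 21 of 32 log2 fold changes were negative with a median of -0.16, where 52.1% of all genes were negative with a median of -0.02.

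**Figure D1:**
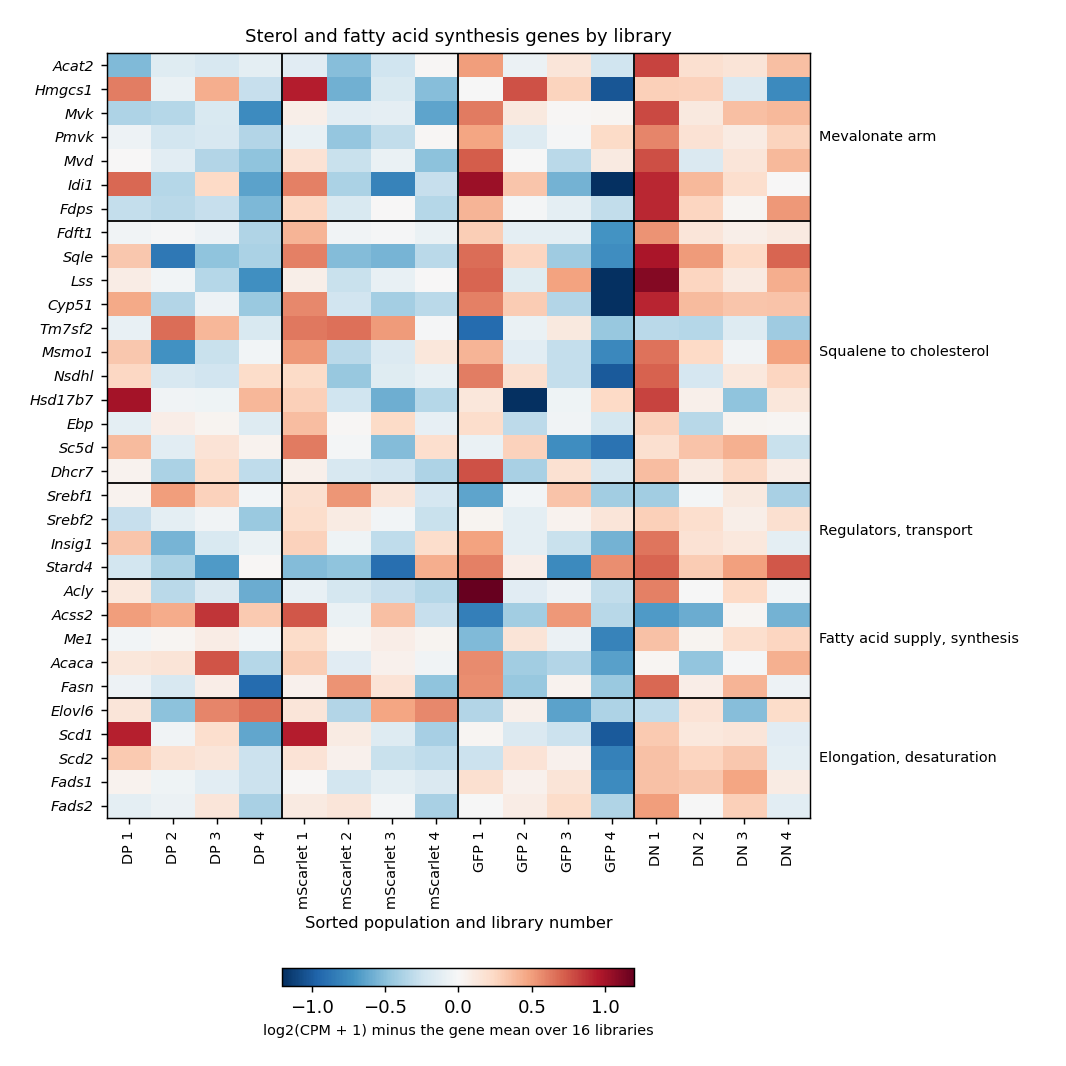
Each row is one of the 32 genes and each column a library, grouped as DP, mScarlet, GFP and DN; colour gives log2(CPM + 1) minus the gene's mean over the 16 libraries (red higher, blue lower). Number 1 libraries are red in most sterol rows in every population, and DN columns are redder than the others in the mevalonate arm.

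The mevalonate arm turns acetyl-CoA into farnesyl diphosphate. Of its 7 members 6 had negative log2 fold changes with mScarlet, with a median of -0.45, and the exception was Hmgcs1. Mvk encodes mevalonate kinase (Entrez 17855, chr5:114444264-114460591, build GRCm38). The DP libraries, numbers 1 to 4, had 34.8, 35.5, 39.7 and 26.5 CPM of Mvk, and the mScarlet libraries 47.8, 41.6, 41.9 and 29.0 CPM. The GFP libraries had 70.4, 49.3, 45.8 and 46.2 CPM, and the DN libraries 79.2, 49.3, 58.6 and 59.8 CPM. Every mScarlet library but number 1 lay below every GFP and DN library, and so did every DP library. Mvk was lower with mScarlet (log2 fold change -0.63 ± 0.14 SE, adjusted p = 0.0136 in edgeR) and was the member whose call held most often, failing in 1 of 25 alternative settings (adjusted p = 0.0785 in edgeR without number 1 in every group).

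Acat2, the cytosolic acetoacetyl-CoA thiolase that opens the arm (Entrez 110460, chr17:12943042-12960725), followed the same order of populations. Acat2 counted 45.6, 59.7, 57.6 and 61.0 CPM in DP libraries 1 to 4 and 60.0, 46.1, 55.9 and 66.6 CPM in mScarlet libraries 1 to 4. Its level was 93.8, 62.8, 73.3 and 56.0 CPM in GFP libraries 1 to 4 and 116, 75.8, 73.4 and 85.1 CPM in DN libraries 1 to 4. DN libraries were all above the DP and mScarlet libraries, and GFP libraries 2 and 4 lay among the mScarlet libraries. Acat2 was lower with mScarlet (log2 fold change -0.49 ± 0.13 SE, adjusted p = 0.0346 in edgeR). Its near copy Acat3 on the same chromosome was listed at 9.69 to 23.4 CPM, so some reads of the pair may have been assigned to either gene.

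Pmvk, phosphomevalonate kinase, acts on the product of mevalonate kinase (Entrez 68603, chr3:89454541-89469014). Levels of Pmvk in libraries 1 to 4 were 31.3, 28.1, 28.5 and 25.5 CPM in DP and 30.7, 23.6, 26.5 and 33.0 CPM in mScarlet. Those in GFP libraries were 45.9, 29.4, 32.5 and 38.5 CPM, and those in DN libraries 49.7, 37.1, 35.1 and 39.6 CPM. DN libraries did not overlap with those of DP or mScarlet, while GFP libraries 2 and 3 lay among the mScarlet libraries. Pmvk was lower with mScarlet (log2 fold change -0.44 ± 0.12 SE, adjusted p = 0.0349 in edgeR).

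The promoters of these enzymes and of Hmgcs1, the HMG-CoA synthase of the same arm, are shown because the kinases and the thiolase were called lower while Hmgcs1 was not. Sequences are from RefSeq on GRCm38.p6, read 5′ to 3′ on the gene's strand. Capitals mark CCAAT boxes, the site of the factor NF-Y that is known to act with SREBP, searched as CCAAT on both strands (ATTGG is the same box read on the other strand). In the Hmgcs1 line they mark the only match among the members to TCACNCCAC, a form of the sterol regulatory element. The first 3 lines hold the 150 bases before the annotated start. Pmvk has 2 annotated starts, and the line printed is from the one with the most CCAAT matches. Box counts per gene are likewise the highest over its annotated starts.
Mvk (chr5:114444119-114444268, plus strand): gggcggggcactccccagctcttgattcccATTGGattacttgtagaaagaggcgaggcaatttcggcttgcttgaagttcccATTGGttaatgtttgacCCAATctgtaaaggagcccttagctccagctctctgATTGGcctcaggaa
Pmvk (chr3:89454391-89454540, plus strand): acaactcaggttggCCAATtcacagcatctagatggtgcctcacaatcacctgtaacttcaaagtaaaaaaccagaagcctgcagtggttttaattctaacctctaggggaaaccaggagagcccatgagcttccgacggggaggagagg
Acat2 (chr17:12960726-12960875, minus strand): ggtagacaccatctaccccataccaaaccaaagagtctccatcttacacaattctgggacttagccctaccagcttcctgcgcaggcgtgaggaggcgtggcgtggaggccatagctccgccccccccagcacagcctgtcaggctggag
Hmgcs1 (chr13:119690189-119690247, plus strand): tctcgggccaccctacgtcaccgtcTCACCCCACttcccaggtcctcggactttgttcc
Mvk had 5 boxes in its window of 250 bases before to 50 after the start, 4 of them in the printed stretch, Hmgcs1 had 4, Pmvk had 1 and Acat2 had none.

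Over the whole list, 25 members had a promoter in the RefSeq table. A CCAAT box in either orientation was found in 21 of them (84.0%), against 41.1% of 27025 genes. The 27025 are all genes of that table, whether or not they were tested here, whereas all members passed the expression filter. The shares of genes below have the same base. At least 2 boxes were found in 10 members (40.0%, against 13.3% of genes) and at least 3 in 6 members (24%, against 3.88%). The E-box CACGTG was in 4 members (16.0%, against 8.09%), and TCACNCCAC in 1 (4.0%, against 1.44%). Boxes were found in members that were lower with mScarlet (Mvk and Pmvk), in members that were higher (Tm7sf2 and Acss2) and in members that were not called. These letter matches describe the windows and are not evidence of binding.

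**Figure D2:**
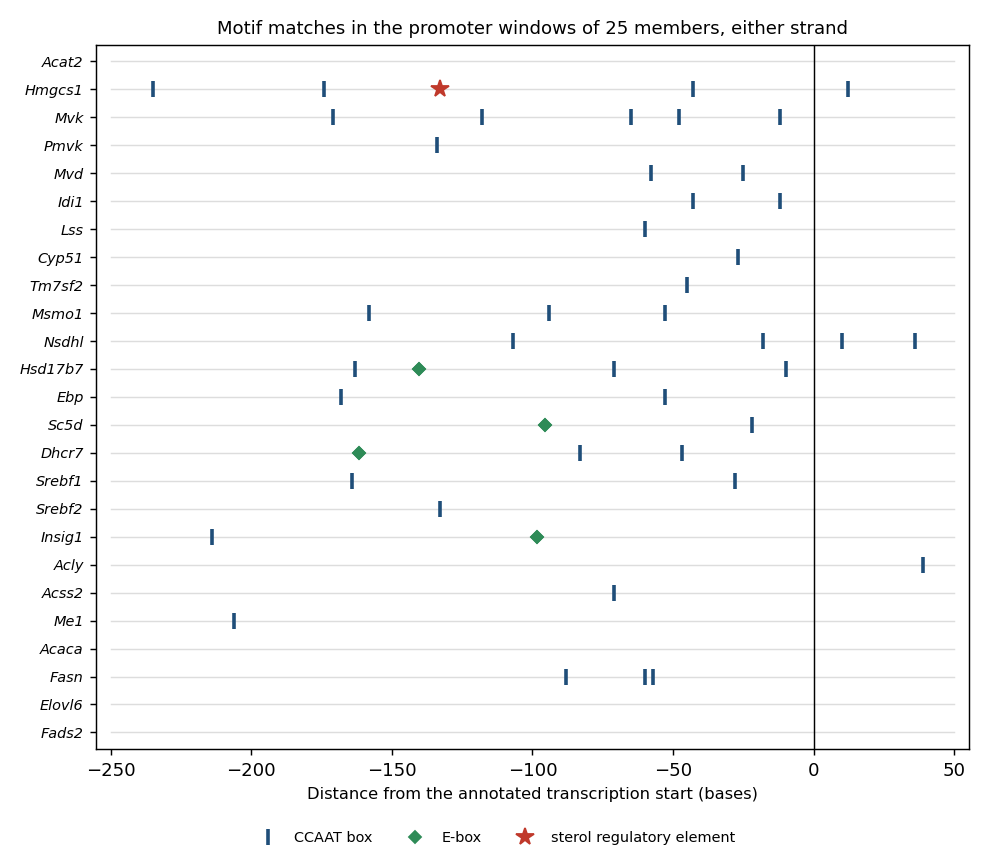
Motif matches on either strand in the promoter windows of the 25 members with an entry, by distance in bases from the annotated start; genes with several starts show the matches of each. CCAAT boxes (bars) occur in 21 genes, the E-box CACGTG (diamonds) in 4 and the sterol regulatory element (star) in Hmgcs1.

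Fdps, farnesyl diphosphate synthase, closes the arm (Entrez 110196, chr3:89093588-89101967). Fdps was at 16.4, 16.0, 16.6 and 13.7 CPM in DP libraries 1 to 4 and at 24.4, 17.8, 20.4 and 15.8 CPM in mScarlet libraries 1 to 4. In GFP libraries 1 to 4 it was at 27.3, 19.9, 18.7 and 16.3 CPM, and in DN libraries 1 to 4 at 38.9, 24.5, 20.7 and 29.5 CPM. DN libraries were all above the DP libraries, which were the most even of the 4 groups. With mScarlet the value missed the threshold without the block (log2 fold change -0.46 ± 0.15 SE, adjusted p = 0.0739 in edgeR) and passed it with the block (log2 fold change -0.44 ± 0.12 SE, adjusted p = 0.0274 in edgeR with the block). Fdps shares 26.7% of its exon bases with Gm43738 on the same strand, a gene without counts of its own here, so the Fdps counts may include reads of that gene. Mvd, the decarboxylase between Pmvk and Fdps, ran from 35.8 to 50.7 CPM in DP and 35.5 to 56.8 CPM in mScarlet, against 40.1 to 83.9 CPM in GFP and 44.6 to 86.7 CPM in DN. Its fold change also passed with the block alone (log2 fold change -0.42 ± 0.12 SE, adjusted p = 0.033 in edgeR with the block). Idi1, the isomerase that supplies Fdps, ran from 2.74 to 19.0 CPM over the 16 libraries and was not called (log2 fold change -0.32 ± 0.36 SE, adjusted p = 0.652 in edgeR).

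Hmgcs1, HMG-CoA synthase (Entrez 208715, chr13:119690351-119708260), showed no such order. The DP libraries, numbers 1 to 4, had 45.6, 27.7, 40.3 and 24.1 CPM of Hmgcs1, and the mScarlet libraries 57.4, 19.4, 25.9 and 20.4 CPM. The GFP libraries had 29.4, 50.7, 35.5 and 14.0 CPM, and the DN libraries 36.1, 35.8, 26.0 and 17.0 CPM. All 4 populations overlapped, and library number 1 was the highest of its group in DP, mScarlet and, narrowly, DN. The fold change with mScarlet was near 0 (log2 fold change 0.09 ± 0.29 SE, adjusted p = 0.884 in edgeR), and it turned negative without mScarlet library 1 (-0.17) and without number 1 in every group (-0.19).

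**Figure D3:**
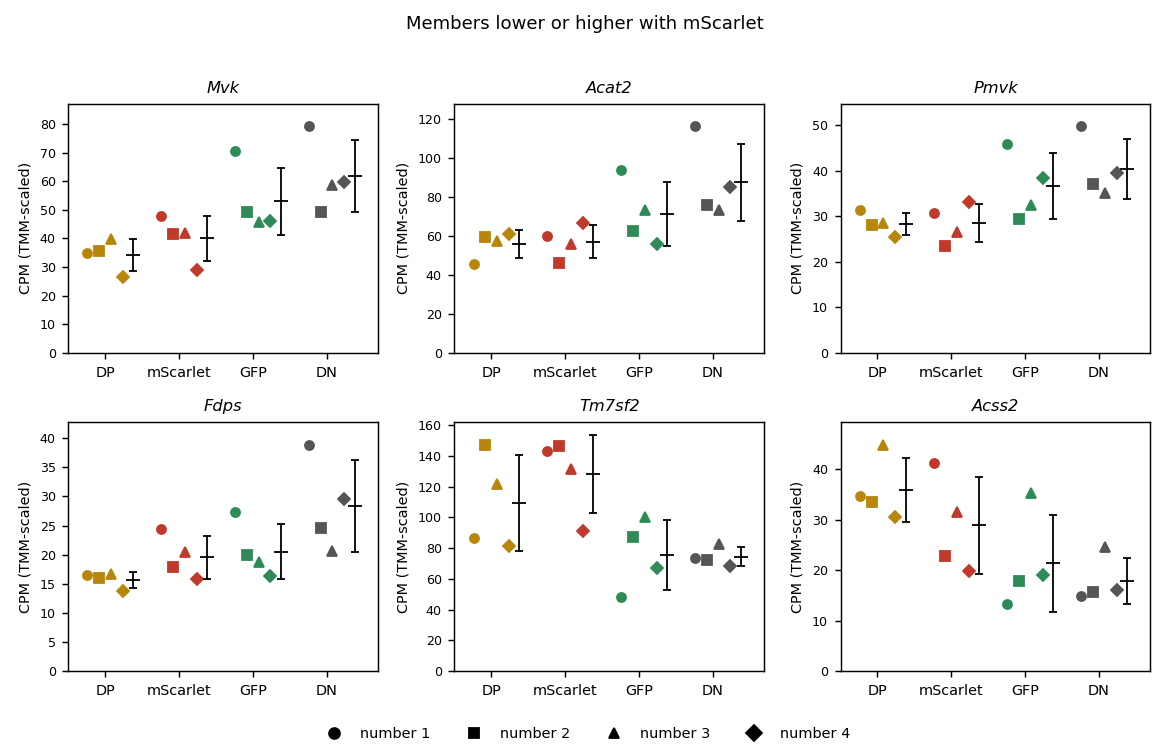
CPM of Mvk, Acat2, Pmvk, Fdps, Tm7sf2 and Acss2 in DP, mScarlet, GFP and DN libraries, each point a library with its shape giving the number and the black bar the mean ± SD (n = 4). Mvk, Acat2, Pmvk and Fdps have their highest means in DN, whereas Tm7sf2 and Acss2 have higher means in DP and mScarlet than in GFP and DN.

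Of the 11 enzymes from squalene to cholesterol, 1 was called with mScarlet, Tm7sf2, and it was higher. That is near the share of all genes called in that comparison, 8.88%. Tm7sf2 encodes a sterol C14 reductase of the endoplasmic reticulum (Entrez 73166, chr19:6062821-6067850). Tm7sf2 counted 86.7, 147, 122 and 81.1 CPM in DP libraries 1 to 4 and 143, 146, 131 and 91.4 CPM in mScarlet libraries 1 to 4. Its level was 48.0, 87.4, 100.3 and 66.9 CPM in GFP libraries 1 to 4 and 73.6, 72.6, 83.0 and 68.4 CPM in DN libraries 1 to 4. All mScarlet libraries were above all DN libraries, and DP libraries 1 and 4 lay among those of GFP. Tm7sf2 was higher with mScarlet (log2 fold change 0.66 ± 0.17 SE, adjusted p = 0.0229 in edgeR). It shares 12.1% of its exon bases with Vps51 on the same strand, whose fold change was -0.09 (edgeR adjusted p = 0.699). The 150 bases before its start hold 1 CCAAT box and are printed as the promoter of a sterol enzyme that moved against the kinases.
Tm7sf2 (chr19:6067851-6068000, minus strand): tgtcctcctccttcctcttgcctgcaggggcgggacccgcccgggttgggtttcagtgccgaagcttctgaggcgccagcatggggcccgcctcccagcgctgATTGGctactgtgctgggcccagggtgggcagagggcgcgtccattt

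Sqle, squalene epoxidase, a further control point of the route (Entrez 20775, chr15:59315092-59331193), varied with the library number. Levels of Sqle in libraries 1 to 4 were 91.1, 39.7, 51.9 and 55.9 CPM in DP and 112, 50.4, 49.3 and 58.0 CPM in mScarlet. Those in GFP libraries were 117, 87.6, 53.9 and 43.0 CPM, and those in DN libraries 145, 104, 86.3 and 119 CPM. Number 1 was the highest library of every group, and mScarlet library 1 stood as high as the middle of the DN libraries. With mScarlet the difference missed the threshold without the block (log2 fold change -0.55 ± 0.24 SE, adjusted p = 0.178 in edgeR) and passed it with the block (log2 fold change -0.57 ± 0.15 SE, adjusted p = 0.0196 in edgeR with the block). Within each number Sqle was lower in mScarlet than in DN, with differences of -0.37, -1.04, -0.80 and -1.03 on the log2(CPM + 1) scale for numbers 1 to 4.

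The other members after squalene were not called with mScarlet in either fit. Lss (lanosterol synthase) and Cyp51 (lanosterol demethylase) had negative values (-0.47 and -0.28), as had Dhcr7, the last reductase (-0.32), Nsdhl (-0.17), Msmo1 (-0.14) and Fdft1, squalene synthase (-0.07). Ebp (0.08), Sc5d (0.18) and Hsd17b7 (0.07) had positive ones. Fdft1 shares 18.3% of its exon bases with Ctsb on the opposite strand, a gene at a mean of 1836 CPM, so some of its reads may belong to that gene. Cyp51 was at 145, 82.6, 101 and 77.3 CPM in DP libraries 1 to 4 and 158, 89.9, 79.3 and 84.2 CPM in mScarlet libraries 1 to 4, against 162, 131, 82.4 and 31.2 CPM in GFP and 201, 138, 134 and 134 CPM in DN libraries 1 to 4. Like Sqle, it was highest at number 1 in every group.

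The levels of the sterol enzymes varied with the library number. Number 1 was the highest of the 4 libraries for 11 of the 18 sterol enzymes in DP, 15 in mScarlet, 14 in GFP and 16 in DN. Over all genes tested, number 1 was the highest for 24.1% in DP, 25.4% in mScarlet, 27.1% in GFP and 27.1% in DN. For the 10 fatty acid genes the counts were 4, 7, 5 and 6 in DP, mScarlet, GFP and DN. Summed erythroid, neutrophil and lymphocyte markers were also highest at number 1 in every group, and sums of the other marker lists were not. At number 1 the erythroid sum was 610 CPM in DP, 205 in mScarlet, 4539 in GFP and 278 in DN. The part of such cells in the sterol enzyme levels was not tested. The labels give the numbers without saying that a number is a shared mouse or day.

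Among the regulators, Srebf1 and Srebf2 had fold changes of opposite sign with mScarlet, and neither was called without the block. Srebf1, which encodes the SREBP-1 factors (Entrez 20787, chr11:60199084-60224186), had the levels that follow. Srebf1 was at 673, 929, 794 and 641 CPM in DP libraries 1 to 4 and at 748, 942, 722 and 567 CPM in mScarlet libraries 1 to 4. In GFP libraries 1 to 4 it was at 422, 638, 829 and 489 CPM, and in DN libraries 1 to 4 at 491, 645, 709 and 500.5 CPM. At each of the 4 numbers, Srebf1 was higher in mScarlet than in DN, although the groups overlapped. With mScarlet it missed the threshold without the block (log2 fold change 0.35 ± 0.15 SE, adjusted p = 0.169 in edgeR) and was higher with the block (log2 fold change 0.36 ± 0.10 SE, adjusted p = 0.0245 in edgeR with the block).

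Srebf2 encodes SREBP-2 (Entrez 20788, chr15:82147269-82205379). The DP libraries, numbers 1 to 4, had 275, 307, 323 and 244 CPM of Srebf2, and the mScarlet libraries 386, 357, 326 and 275 CPM. The GFP libraries had 341, 307, 343 and 367 CPM, and the DN libraries 406, 382, 349 and 379.6 CPM. DP libraries lay below all DN libraries, and mScarlet libraries spread across both. Srebf2 was not called with mScarlet (log2 fold change -0.21 ± 0.09 SE, adjusted p = 0.159 in edgeR), nor with the block (log2 fold change -0.21 ± 0.08 SE, adjusted p = 0.114 in edgeR with the block).

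Insig1 retains the SREBP complex in the endoplasmic reticulum and is itself an SREBP target (Entrez 231070, chr5:28071412-28078662). Insig1 counted 38.4, 20.3, 26.7 and 28.7 CPM in DP libraries 1 to 4 and 37.0, 29.4, 24.4 and 35.2 CPM in mScarlet libraries 1 to 4. Its level was 43.0, 27.9, 25.05 and 20.2 CPM in GFP libraries 1 to 4 and 47.9, 34.5, 33.3 and 28.0 CPM in DN libraries 1 to 4. The groups overlapped and the gene was not called (log2 fold change -0.11 ± 0.18 SE, adjusted p = 0.775 in edgeR). Stard4, a cytosolic sterol carrier (Entrez 170459, chr18:33199138-33213862), ran from 5.82 to 10.0 CPM in DP and 4.82 to 13.7 CPM in mScarlet, against 5.44 to 15.6 CPM in GFP and 12.5 to 17.2 CPM in DN. It was lower with mScarlet in the fit with the block (log2 fold change -0.77 ± 0.18 SE, adjusted p = 0.0123 in edgeR with the block) and missed the threshold without it (log2 fold change -0.74 ± 0.25 SE, adjusted p = 0.0752 in edgeR).

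**Figure D4:**
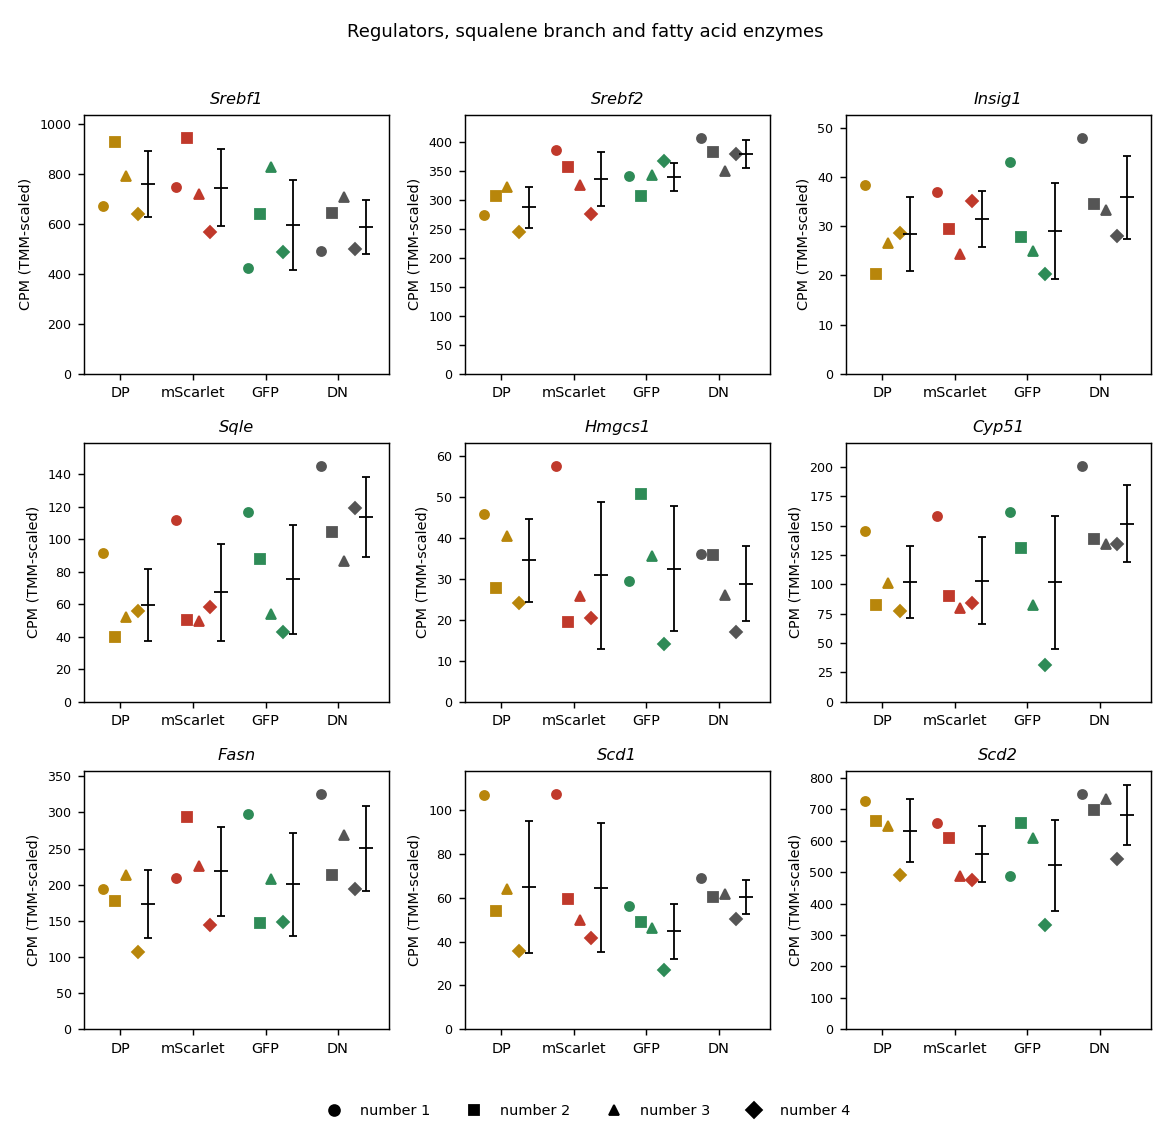
CPM of Srebf1, Srebf2, Insig1, Sqle, Hmgcs1, Cyp51, Fasn, Scd1 and Scd2 in DP, mScarlet, GFP and DN libraries, each point a library with its shape giving the number and the black bar the mean ± SD (n = 4). For Sqle and Cyp51 the number 1 library (circle) is the highest in all 4 groups.

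Of the 10 fatty acid genes, 1 was called with mScarlet, Acss2, which makes acetyl-CoA from acetate (Entrez 60525, chr2:155518043-155562743). Here too the count is near the share of all genes called, 8.88%. Levels of Acss2 in libraries 1 to 4 were 34.6, 33.4, 44.8 and 30.4 CPM in DP and 41.3, 22.8, 31.4 and 19.9 CPM in mScarlet. Those in GFP libraries were 13.3, 17.9, 35.2 and 19.1 CPM, and those in DN libraries 14.8, 15.7, 24.6 and 16.1 CPM. All DP libraries lay above all DN libraries, and GFP library 3 stood at the DP level. Acss2 was higher with mScarlet (log2 fold change 0.72 ± 0.21 SE, adjusted p = 0.0439 in edgeR). The opposite-strand gene Ggt7, which shares 1.94% of the exon bases of Acss2, was lower (log2 fold change -2.46 ± 0.57 SE, adjusted p = 0.0158 in edgeR), and Gss, which shares 3.89%, was not called (0.27, edgeR adjusted p = 0.0906). The stretch before its start, printed as that of the other member that was higher, holds 1 CCAAT box.
Acss2 (chr2:155517893-155518042, plus strand): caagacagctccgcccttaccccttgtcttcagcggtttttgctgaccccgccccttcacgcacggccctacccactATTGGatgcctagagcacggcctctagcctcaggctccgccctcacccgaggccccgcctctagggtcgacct

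Acly, ATP-citrate lyase, supplies acetyl-CoA from citrate (Entrez 104112, chr11:100476352-100528000). Acly was at 248, 181, 201 and 149.8 CPM in DP libraries 1 to 4 and at 213, 196, 187 and 178 CPM in mScarlet libraries 1 to 4. In GFP libraries 1 to 4 it was at 679, 206, 218 and 185 CPM, and in DN libraries 1 to 4 at 347, 226, 267 and 222 CPM. GFP library 1 was far above all others, and it also held the highest macrophage marker sum, 24323 CPM, against 1030 to 3467 CPM in the other GFP libraries. Erythroid markers summed to 4539 CPM in GFP library 1, against 4.69 to 112 CPM in the other GFP libraries. For endothelial markers the sums were 46.7 CPM against 3.39 to 13.3 CPM. The part of those cells in the Acly value was not tested. Acly was not called with mScarlet (log2 fold change -0.59 ± 0.24 SE, adjusted p = 0.137 in edgeR).

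Fasn, the fatty acid synthase (Entrez 14104, chr11:120805958-120825166), was not called in any comparison. The DP libraries, numbers 1 to 4, had 194, 177, 214 and 106 CPM of Fasn, and the mScarlet libraries 209, 294, 227 and 144 CPM. The GFP libraries had 298, 148, 208 and 148 CPM, and the DN libraries 325, 214, 268 and 194 CPM. Its libraries overlapped in all 4 groups (log2 fold change -0.20 ± 0.20 SE, adjusted p = 0.574 in edgeR). Acaca, the carboxylase before it, ran from 3.27 to 10.3 CPM over the 16 libraries and was not called (log2 fold change 0.23 ± 0.25 SE, adjusted p = 0.645 in edgeR). Me1, the malic enzyme that yields NADPH, was at 148, 153, 161 and 148 CPM in DP libraries 1 to 4 and 177, 154, 159 and 154 CPM in mScarlet libraries 1 to 4, against 104, 169, 144 and 86.2 CPM in GFP and 193, 155, 174 and 181 CPM in DN libraries 1 to 4. GFP libraries 1 and 4 were the lowest of the 16.

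With all 16 libraries the desaturases were not called. Scd1, a stearoyl-CoA desaturase (Entrez 20249, chr19:44394450-44407709), was highest in both number 1 libraries of the mScarlet-positive cells. Scd1 counted 107, 53.8, 63.7 and 35.5 CPM in DP libraries 1 to 4 and 107, 59.3, 49.7 and 41.8 CPM in mScarlet libraries 1 to 4. Its level was 56.4, 49.1, 46.0 and 27.0 CPM in GFP libraries 1 to 4 and 69.2, 60.3, 61.5 and 50.3 CPM in DN libraries 1 to 4. The fold change with mScarlet missed the threshold (log2 fold change 0.32 ± 0.23 SE, adjusted p = 0.446 in edgeR). Scd2, its neighbour on chromosome 19 (Entrez 20250, chr19:44293676-44306864), had GFP library 4 as its lowest value.

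Levels of Scd2 in libraries 1 to 4 were 727, 663, 648 and 490.1 CPM in DP and 655, 608, 488 and 475 CPM in mScarlet. Those in GFP libraries were 489, 658, 609 and 333 CPM, and those in DN libraries 749, 699, 734 and 541 CPM. The groups overlapped, and the fold change with mScarlet was near 0 (log2 fold change -0.01 ± 0.14 SE, adjusted p = 0.986 in edgeR). Fads1, the delta-5 desaturase, was at 161, 151, 143 and 130.4 CPM in DP libraries 1 to 4 and 158, 134, 144 and 139 CPM in mScarlet libraries 1 to 4, against 179, 162, 174 and 92.3 CPM in GFP and 200.2, 196, 218 and 168 CPM in DN libraries 1 to 4. All DN libraries were above all DP and mScarlet libraries, but the gene was not called with mScarlet (log2 fold change -0.25 ± 0.12 SE, adjusted p = 0.229 in edgeR). Without GFP library 4, its lowest library, Fads1 was lower with mScarlet (log2 fold change -0.34, edgeR adjusted p = 0.0236), and without GFP libraries 1 and 4 it was lower in mScarlet than in DN (-0.46, edgeR adjusted p = 0.0404) and in DP than in DN (-0.43, edgeR adjusted p = 0.046). Fads2, the delta-6 desaturase, ran from 128 to 238 CPM over the 16 libraries (log2 fold change -0.16 ± 0.12 SE, adjusted p = 0.489 in edgeR), and Elovl6, an elongase, from 2.22 to 6.95 CPM (log2 fold change 0.58 ± 0.27 SE, adjusted p = 0.207 in edgeR).

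**Figure D5:**
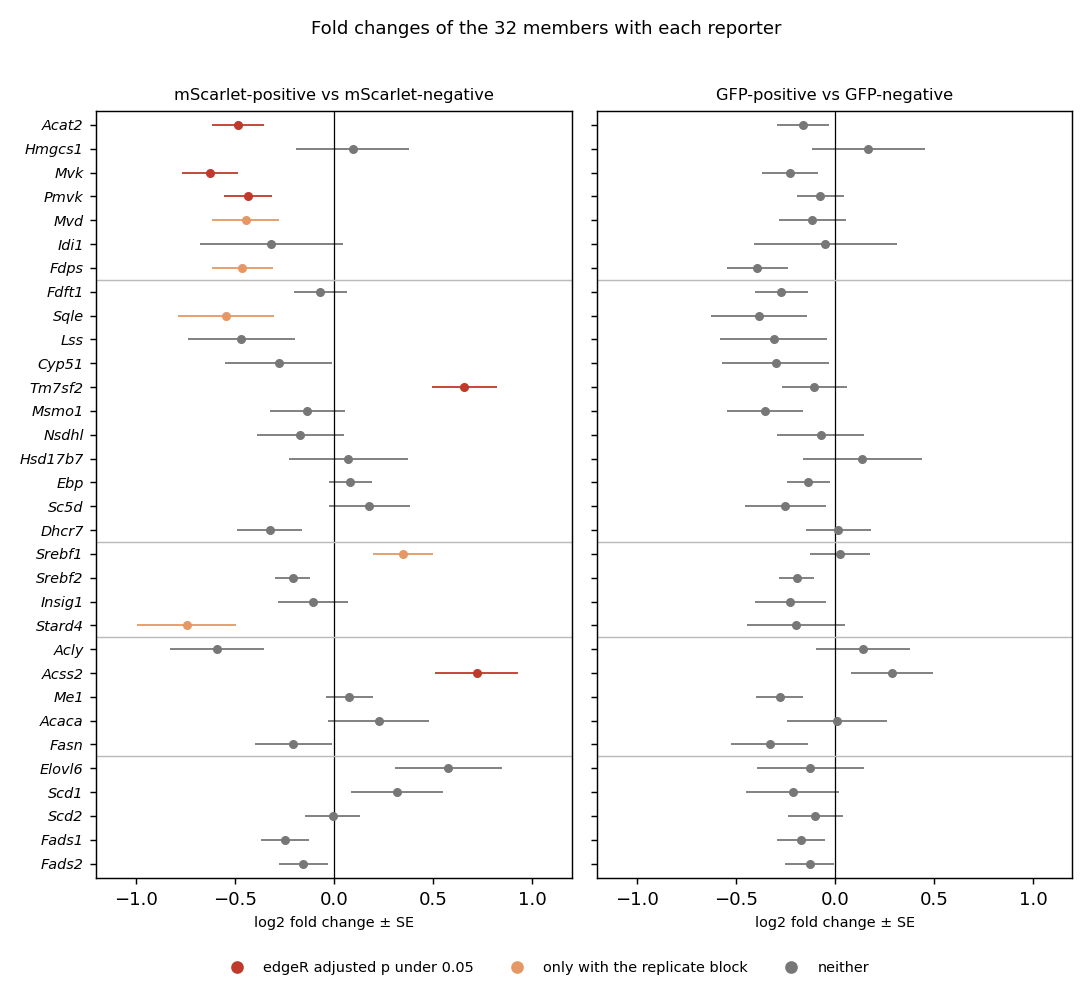
Log2 fold change ± SE (edgeR) of the 32 members, mScarlet-positive vs mScarlet-negative on the left and GFP-positive vs GFP-negative on the right, 8 libraries against 8 in each; red passed an adjusted p of 0.05 and orange passed it only with the library number as a block. The mScarlet panel holds 5 red and 5 orange genes and the GFP panel none.

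The calls with mScarlet were close to the threshold for most members. The adjusted p of edgeR rose above 0.05 for Acat2 without DP 1 or 3, GFP 1, mScarlet 1, 2 or 3 or DN 1 (0.0527 to 0.0757), and for Tm7sf2 without DP 2 or 3, mScarlet 2 or DN 4 (0.0508 to 0.0561). It did so for Pmvk without any 1 DP library, GFP 1 or 4, mScarlet 2 or 3 or DN 1 or 4 (0.0505 to 0.0723), and for Acss2 without any 1 DP library, GFP 1, 2 or 4, mScarlet 1, 2 or 3 or DN 1, 2 or 4 (0.0515 to 0.0997). Fibroblast markers (10 of 10 negative, 6 called lower, median -4.01) and acinar markers (11 of 11 negative, 4 called lower, median -3.36) moved with mScarlet. Macrophage markers were negative for 9 of 10 (median -1.11, none called), and epithelial markers were positive for 7 of 9 (median 0.34, 2 called higher). Without GFP libraries 1 and 4, which held the highest macrophage and the highest fibroblast and acinar sums, 1 member stayed called (Mvk), and without number 1 in every group, a setting chosen after seeing the data, Mvk had an edgeR adjusted p of 0.0785 and no other member passed. The shares of all genes called in these settings are not given here. The part of other cells in the member values was not tested.

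DP against DN called 1 member, Mvk, which was lower (log2 fold change -0.85 ± 0.20 SE, adjusted p = 0.0379 in edgeR), where 2.13% of all genes were called. With the block 6 members passed, beside 6.11% of all genes, and DESeq2 called 6 members beside 7.09% of the genes it tested. In the fit with the block, Fdps (log2 fold change -0.83 ± 0.17 SE, adjusted p = 0.0155 in edgeR with the block), Stard4, Mvk, Sqle and Pmvk were lower and Acss2 was higher (log2 fold change 1.02 ± 0.23 SE, adjusted p = 0.0244 in edgeR with the block). DESeq2, which had no block, called Fdps, Acat2 (adjusted p = 0.02 in DESeq2), Mvk, Srebf2 (adjusted p = 0.034 in DESeq2) and Pmvk as lower and Acss2 as higher. In edgeR without the block, Fdps (log2 fold change -0.86 ± 0.22 SE, adjusted p = 0.0563 in edgeR), Acat2 (log2 fold change -0.65 ± 0.19 SE, adjusted p = 0.0958 in edgeR) and Srebf2 (log2 fold change -0.40 ± 0.12 SE, adjusted p = 0.118 in edgeR) missed the threshold. The libraries of DP and DN did not overlap for 1 member in the higher and 9 in the lower direction, against 5.68% and 7.37% of all genes. The call of Mvk ended without any 1 DP library, mScarlet 3 or DN 1, 3 or 4 (edgeR adjusted p 0.053 to 0.154).

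mScarlet against DN called 0 members in edgeR, where 0.996% of all genes were called. At an unadjusted p under 0.05 there were 9 members (14.3% of all genes), DESeq2 called 2 (5.76% of the genes it tested) and limma voom 0. The smallest p belonged to Tm7sf2 (log2 fold change 0.78 ± 0.23 SE, adjusted p = 0.124 in edgeR), Acat2 (log2 fold change -0.62 ± 0.19 SE, adjusted p = 0.133 in edgeR) and Mvk (log2 fold change -0.62 ± 0.20 SE, adjusted p = 0.157 in edgeR). With the block 5 members passed beside 5.1% of all genes, Stard4, Mvk, Sqle and Pmvk lower and Tm7sf2 higher (log2 fold change 0.77 ± 0.18 SE, adjusted p = 0.0291 in edgeR with the block). Non-overlap of mScarlet and DN libraries was seen for 1 member in the higher and 7 in the lower direction, against 5.03% and 6.06% of all genes. It was seen for 0 members in GFP against DN, beside 305 genes higher and 364 lower of 15963. Between mScarlet-positive and mScarlet-negative libraries it was also seen for 0 members, beside 145 genes higher and 165 lower.

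Within library numbers, the sterol enzymes were mostly lower in mScarlet than in DN. At all 4 numbers 14 of the 18 sterol enzymes and 4 of the 10 fatty acid genes were lower in mScarlet, and 20 of all 32 members, while 14.6% of all genes were. In DP against DN 18 of the 32 members were lower at all 4 numbers (10 of the sterol enzymes), against 16.3% of all genes, and in GFP against DN 17 members were (9 of the sterol enzymes), against 11.6%. The 3 comparisons share the DN libraries. Higher at all 4 numbers were 3 members in mScarlet against DN, 3 in DP against DN and 0 in GFP against DN, where 14%, 16.1% and 10.7% of all genes were.

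GFP against DN called 0 of the 32 members in edgeR, and 0% of all genes were called. At an unadjusted p under 0.05 there were 3 members (10% of all genes), and DESeq2 called 0 (1.75% of the genes it tested) and limma voom 0. Negative fold changes were seen for 27 members with a median of -0.30, where 47.7% of all genes were negative with a median of 0.02. Markers of some other cells had values of the opposite sign, with 10 of 10 macrophage (median 2.91), 10 of 10 fibroblast (2.29), 11 of 11 acinar (4.36) and 4 of 4 erythroid genes (3.63) positive. Neutrophil markers (6 of 6 negative, median -1.01) and most lymphocyte markers (5 of 7 negative, median -0.995) had the same sign as most members. Endothelial, hepatocyte and adipocyte markers were mixed in sign, and no marker of any of these lists was called. Me1 (log2 fold change -0.48 ± 0.17 SE, adjusted p = 0.41 in edgeR), Fdps (log2 fold change -0.47 ± 0.22 SE, adjusted p = 0.494 in edgeR) and Fads1 (log2 fold change -0.37 ± 0.17 SE, adjusted p = 0.497 in edgeR) had the smallest p. GFP library 4 held the highest sums in its group of acinar (26722 CPM), fibroblast (9314 CPM) and adipocyte markers (618 CPM). It was the lowest GFP library for, among others, Cyp51, Lss, Nsdhl, Idi1, Scd1, Scd2 and Fads1. Srebf2 (367 CPM) and Hsd17b7 (7.57 CPM) were highest in that library, and Pmvk, Mvd and Stard4 were not lowest there. The share of all genes lowest in that library is not given here. The part of other cells in the member values was not tested here either.

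The remaining comparisons of the GFP reporter called no member in edgeR. Between GFP-positive cells (DP and GFP) and GFP-negative cells (mScarlet and DN), 0% of all genes were called, 3 members had an unadjusted p under 0.05 (9.93% of all genes), and DESeq2 called 0 members (2.47% of the genes it tested) and limma voom 0. There 25 of 32 members were negative with a median of -0.15, where 49.1% of all genes were negative. The smallest p belonged to Fdps (log2 fold change -0.39 ± 0.15 SE, adjusted p = 0.4 in edgeR), Me1 (-0.28) and Srebf2 (-0.19). DP against mScarlet called 0% of all genes and had 0 members at an unadjusted p under 0.05 (3.03% of all genes), with 0 in DESeq2 (0.332% of the genes it tested) and 0 in limma voom. Srebf2 (-0.23), Hsd17b7 (0.66) and Fdps (-0.32) had the smallest p. The interaction, which tests whether the effect of one reporter differed with the other, called 0 members and 0% of all genes in edgeR, 0 members in DESeq2 (0.315% of the genes it tested) and 0 in limma voom, with 0 members at an unadjusted p under 0.05 (3.35% of all genes). Its smallest p belonged to Scd2 (log2 value 0.57), Hsd17b7 (1.05), an enzyme of sterol 4-demethylation at 2.02 to 13.5 CPM over the libraries, and Me1 (0.40).

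GFP against mScarlet, the single-positive cells, called 0 members in edgeR, where 1.82% of all genes were called, with 3 members at an unadjusted p under 0.05 (19.3% of all genes), 1 in DESeq2 (10.5% of the genes it tested) and 0 in limma voom. Tm7sf2 was at 48.0, 87.4, 100.3 and 66.9 CPM in GFP libraries 1 to 4 and 143, 146, 131 and 91.4 CPM in mScarlet libraries 1 to 4, overlapping by GFP library 3 (log2 fold change -0.76 ± 0.23 SE, adjusted p = 0.0924 in edgeR). Acly (log2 fold change 0.73 ± 0.34 SE, adjusted p = 0.247 in edgeR) and Pmvk (log2 fold change 0.36 ± 0.17 SE, adjusted p = 0.258 in edgeR) followed. The Acly value rested on GFP library 1, being 0.077 without it, and within numbers 1 to 4 the difference was 1.67, 0.071, 0.22 and 0.055 on the log2(CPM + 1) scale. DP against GFP called 0 members in edgeR, where 0.445% of all genes were called, with 5 at an unadjusted p under 0.05 (16% of all genes), 1 in DESeq2 (6.8% of the genes it tested) and 0 in limma voom. With the block Mvk was lower in DP than in GFP (log2 fold change -0.62 ± 0.15 SE, adjusted p = 0.0376 in edgeR with the block), and 4.96% of all genes passed. Acss2 (log2 fold change 0.75 ± 0.30 SE, adjusted p = 0.23 in edgeR) and Tm7sf2 (log2 fold change 0.53 ± 0.23 SE, adjusted p = 0.281 in edgeR) missed the threshold without it.

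Other genes of lipid metabolism were read from a companion list of 56 genes in the files, 54 of them tested. With mScarlet 7 of the 54 were called, 1 higher and 6 lower, where 8.88% of all genes were. Negative values were seen for 29 of the 54 with a median of -0.05, near those of all genes (52.1% negative, median -0.02). With the block 10 were called, 3 higher and 7 lower, where 14.2% of all genes were.

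Tmem97, a sterol-responsive membrane protein, had no overlap between mScarlet-positive and mScarlet-negative libraries. Of all 15963 genes, 145 were without overlap in the higher and 165 in the lower direction. Tmem97 was at 34.6, 31.5, 36.2 and 39.1 CPM in DP libraries 1 to 4 and 34.5, 36.1, 46.1 and 48.1 CPM in mScarlet libraries 1 to 4, against 111, 54.3, 53.5 and 58.0 CPM in GFP and 139.8, 69.9, 72.5 and 113 CPM in DN libraries 1 to 4. It was lower with mScarlet (log2 fold change -1.12 ± 0.18 SE, adjusted p = 0.00241 in edgeR), and it remained called in all 25 settings of that comparison. Insig2, a retention partner of the SREBP complex like Insig1, was higher (log2 fold change 0.49 ± 0.13 SE, adjusted p = 0.0263 in edgeR). The call of Insig2 ended without DP 1, 2 or 4, GFP 1 or 3, mScarlet 2, 3 or 4 or DN 1, 3 or 4 (edgeR adjusted p 0.0501 to 0.072).

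In the single comparisons, DP against DN called 4 of the 54 other lipid genes, all lower, where 2.13% of all genes were called, among them Tmem97 (log2 fold change -1.48 ± 0.26 SE, adjusted p = 0.00991 in edgeR). mScarlet against DN called 2, both lower, where 0.996% of all genes were called, among them Tmem97 (log2 fold change -1.26 ± 0.26 SE, adjusted p = 0.0326 in edgeR). The Tmem97 call there ended without DP 3, mScarlet 1, 2 or 3 or DN 1 or 4 (edgeR adjusted p 0.0505 to 0.141). With the block 7 were called in each of these comparisons, 1 higher and 6 lower, beside 6.11% of all genes in DP against DN and 5.1% in mScarlet against DN.

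The other comparisons called 0 of the 54 in edgeR without the block and in limma voom. With the block 5 were called in DP against GFP, 2 higher and 3 lower (4.96% of all genes), and 1 was called higher in GFP-positive against GFP-negative (0.482% of all genes). At an unadjusted p under 0.05 there were 9 in GFP against DN (10% of all genes), 14 in GFP against mScarlet (19.3%), 13 in DP against GFP (16%), 11 in GFP-positive against GFP-negative (9.93%), 1 in DP against mScarlet (3.03%) and 3 in the interaction (3.35%). DESeq2 called 3 in GFP against DN (1.75% of the genes it tested), 8 in GFP against mScarlet (10.5%), 5 in DP against GFP (6.8%), 3 in GFP-positive against GFP-negative (2.47%), and 0 in DP against mScarlet (0.332%) and in the interaction (0.315%).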

How the data were processed

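RNA of sorted cells was amplified as full-length cDNA for low input, per the labels' protocols, and sequenced as 16 libraries, 4 in each of 4 groups. The deposited files hold whole-number counts of reads per Entrez gene, unnormalized. The submitters' processing notes name STAR, DESeq2 1.24.0 and the build GRCm38 (mm10). Neither the read counter nor its strand setting is stated in the sources used here, so reads of overlapping genes cannot be told apart. Of 24467 identifiers 24437 matched a symbol in a RefSeq table of GRCm38.p6. The other 30 held 0.723% to 1.93% of counts. 

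Counts were tested with edgeR 4.0.16 in R 4.3.3 (TMM scaling, expression filter by group, quasi-likelihood test on all 16 libraries, Benjamini-Hochberg over 15963 genes, threshold 0.05). The edgeR fit by group was run on simulated counts that held no effect of the library number, with changes planted in mScarlet alone. That run covered mScarlet against DN and DP against GFP. It did not cover the fit with the block or mScarlet-positive against mScarlet-negative cells. No 2 replicates agreed within sampling noise (lowest chi-square per degree of freedom 91.8), so each library counts once, and p-values measure the spread between libraries. Same-numbered libraries deviated together (correlations of 0.092 to 0.608, over 0.1 in 23 of 24 pairs, every pair except number 4 of GFP against mScarlet). The number was therefore added as a block in an alternative fit of every comparison, while the chosen fit held the group alone. DESeq2 1.42.0, limma 3.58.1 voom, other scalings, no filter, fewer groups and left-out libraries were alternatives. Differences within numbers are on the log2(CPM + 1) scale.

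The 32 members, the companion lists and the tests were chosen with earlier results of these data known. Named members were those called, Srebf1, Srebf2, Insig1, Hmgcs1, Sqle, Fasn, Scd1 and Scd2, and the 3 with the smallest p where fewer than 3 were called. Companion genes were named where called, at most 3 per direction and comparison, and some are not reported here. Values of other members with a role in a result were added after their values were seen. Gene overlaps come from an annotation of GRCm38, and promoters from RefSeq.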

Additional observations from a re-analysis of the deposited data

Results flagged for a closer look

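In 10 of 128 groups of 4 libraries (32 members in 4 populations), 1 library stood apart from the other 3, where chance gives about 1 in 20 groups of independent, normally distributed values. The 128 groups are not independent, since the sterol enzymes varied with the library number, and the share over all genes was not computed. Number 1 libraries account for 8 of the 10. In mScarlet library 1, Hmgcs1 was at 57.4 CPM (others 19.4 to 25.9), Fdft1 at 124 CPM (88.8 to 92.6), Sqle at 112 CPM (49.3 to 58.0) and Cyp51 at 158 CPM (79.3 to 89.9). In DN library 1, Fdft1 was at 136 CPM (98.6 to 104) and Cyp51 at 200.5 CPM (134 to 138). In GFP library 1, Mvk was at 70.4 CPM (45.8 to 49.3) and Acly at 679 CPM (185 to 218). The other 2 were Fdft1 in DP library 4, at 72.8 CPM (89.95 to 92.9), and Acss2 in DN library 3, at 24.6 CPM (14.8 to 16.1). The cause was not tested.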

How the results depend on the processing

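Of 52 gene results, 49 kept their sign under all settings run. The exceptions, none of them called, were for mScarlet-positive against mScarlet-negative. Hmgcs1 turned to -0.12 without GFP libraries 1 and 4, to -0.19 without number 1 in every group (chosen after seeing the data, as was robust empirical Bayes in edgeR) and to -0.17, -0.036 and -0.0075 without mScarlet 1, GFP 4 and DN 4, the values leaving out 1 library running up to 0.24. Scd2 turned positive with limma voom (0.0076), unscaled library totals (0.000758) and the replicate block (0.0041), and without DP 4 (0.023), GFP 2 (0.055), GFP 3 (0.026), mScarlet 3 (0.000698) or mScarlet 4 (0.0088), the lowest value leaving out 1 library being -0.092. Insig1 turned to 0.0047 without GFP 1. The cause was not tested.

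The number of members called with mScarlet, 5 in the chosen fit, was 7 with DESeq2, 10 with the replicate block, 3 without the expression filter, 1 without GFP libraries 1 and 4, 0 without number 1 in every group, and 1 to 6 leaving out 1 library. Of all genes 1418 were called in the chosen fit and 859 to 1664 leaving out 1 library. DESeq2 called 15.3% of the genes it tested, and the fit with the block 14.2% of all genes. Shares of all genes without the filter, without several libraries or from the compared groups alone are not given here. In those settings, in this and the comparisons below, a change in members cannot be set against one in all genes. For DP against DN, 1 became 6 with DESeq2, 6 with the replicate block, 4 from the compared groups alone, 5 without GFP libraries 1 and 4, 0 without number 1, and 0 to 3 leaving out 1 library. There 340 of all genes were called in the chosen fit and 92 to 509 leaving out 1 library. For mScarlet against DN, 0 became 2 with DESeq2, 5 with the replicate block, 1 from the compared groups alone and 2 without GFP libraries 1 and 4. For GFP against mScarlet (where the pairing check failed for 1 pair, so that the samples share only a number) 0 became 1 with DESeq2 and 1 with the replicate block, Tm7sf2 in both. With the block 5 of the 54 other lipid genes were called there, and of all 15963 genes 714 were called higher and 464 lower. Over all comparisons, 22 of 24 pairs correlated best with their own number. For DP against GFP 0 became 1 with either, Mvk in both. The block changed no other count of members. The median of all genes moved by over 0.1 in 1 case, the interaction with unscaled totals (0.106). Counting error is small at these depths, so the spread between libraries sets the precision.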

Other observations

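Among the other markers, the 10 macrophage genes summed to 2216 to 6361 CPM in DP and 1262 to 2258 CPM in mScarlet, against 1030 to 24323 CPM in GFP and 947 to 3500 CPM in DN, and the 9 epithelial genes to 28701 to 37559 CPM in DP and 29331 to 45391 CPM in mScarlet, against 16051 to 32017 CPM in GFP and 25952 to 28879 CPM in DN. Adipocyte markers summed to 123 to 172 CPM in DP and 156 to 193 CPM in mScarlet, against 55.02 to 618 CPM in GFP and 69.3 to 128 CPM in DN, and 3 of the 10 passed the filter. Most of that sum in DP and mScarlet was Cidec, a lipid droplet gene, at 115 to 166 CPM in DP and 149 to 185 CPM in mScarlet, against 44.7 to 116 CPM in GFP and 64.3 to 117 CPM in DN, while the defining markers Adipoq and Cfd were at 0 in every DP and mScarlet library.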
